A study of Mus musculus with 8 samples.

Results

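Type I interferon signalling leaves cells with a recognisable set of transcripts, the antiviral interferon-stimulated genes, and 34 such genes were followed here in the stromal cells of inflamed mouse joints. The genes were taken as a list of symbols set by their place in the antiviral response; the rule uses no measured value, although the list was drawn up with earlier results of these data known. Of the 34 genes, 32 had a row among the 32285 genes of the count matrices, and Mx1 and Mx2 are not analysed here. Counts of unique molecular identifiers (UMIs, each marking 1 captured transcript) were summed per animal over annotated cells, gene by gene, and also averaged over the 32 genes.

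The cells came from the ankle and wrist synovium of 17 mice aged 8 to 10 weeks and were profiled by 10x 3' single-cell RNA sequencing in 4 libraries, with an antibody hashtag marking each animal. TNF-inhibited animals (n = 3) carried the human TNF transgene hTNFtg197 (strain B6-Tg(TNF)197Gkl), received Il23mc for 9 days and were given an antibody against human TNF. IL-17-inhibited animals (n = 3) had the same transgene and Il23mc and were given an antibody against mouse IL-17A. FAP-sorted animals (n = 5) had the transgene and Il23mc with no inhibitor, and their cells were sorted as viable CD45- FAP+ Pdpn+. Untreated arthritic animals (n = 3) had the transgene and Il23mc with no inhibitor. Healthy animals (n = 3) were wild type without transgene or Il23mc, so the effects of transgene and Il23mc cannot be told apart. Cells of the 4 groups other than the FAP-sorted one were sorted for absence of CD45, with viable cells kept and no FAP or Pdpn enrichment. Each arthritic group was run in its own library, so group and library cannot be told apart; 1 healthy animal was run in each of the 3 unsorted libraries.

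As background, type I interferons bind the IFNAR receptor on nearly every nucleated cell and act through JAK kinases on a complex that holds STAT2 and IRF9. The complex binds a promoter element called the interferon-stimulated response element (ISRE) and switches on genes whose products sense viral RNA, block its translation or degrade it, and hold virus particles at membranes. Interferon gamma acts through a different element, the gamma-activated site (GAS), and shares part of the same gene set. Synovial fibroblasts are known to respond to both kinds of interferon, and an interferon signature has been described in inflamed synovium.

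The promoters of the members show the element this programme is named for, and the windows around it are printed to show the letters shared by genes that the results below turn on. RefSeq promoters (mouse build GRCm38.p6), running from 250 bases before to 50 bases after the start, were found for 25 members. The core GAAANNGAA of the ISRE, searched on both strands, lay in 15 of the 25 members (60%), against 2638 of 27025 genes (9.76%). The core TTCNNNGAA of the GAS, whose letters read the same on both strands and can overlap the ISRE core, lay in 7 of 25 members (28%), against 2582 of 27025 genes (9.55%). A match describes these letters and says nothing of binding. Each window has 60 bases, 5' to 3' on the strand of its gene, with the ISRE core nearest the start in capitals; TTC first marks a match on the opposite strand. The Ifit1 window was chr19:34640780-34640839 on the plus strand, with its match 84 bases before the start. For Ifit3 the window was chr19:34583402-34583461 on the plus strand, 102 bases before the start, and the window of its near-copy Ifit3b at chr19:34607798-34607857 has the same letters. The Rsad2 window was chr12:26456537-26456596 on the minus strand, with the match 119 bases before the start.
Ifit1: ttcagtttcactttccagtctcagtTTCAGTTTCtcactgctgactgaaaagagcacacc
Ifit3: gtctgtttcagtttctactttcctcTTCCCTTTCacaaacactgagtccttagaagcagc
Rsad2: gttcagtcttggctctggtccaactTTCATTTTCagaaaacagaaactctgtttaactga

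Among members called between TNF-inhibited and untreated arthritic fibroblasts, these 3 genes and Ifit3b had the largest fitted differences. Isg15 and Bst2, which were called between untreated arthritic and healthy fibroblasts instead or as well, carry the core in the other orientation. The Isg15 window was chr4:156200850-156200909 on the minus strand, 66 bases before the start, and the Bst2 window was chr8:71537562-71537621 on the minus strand, 124 bases before the start. The printed promoters hold 3 matches in Ifit1, 3 in Ifit3, 3 in Isg15 and 2 in Bst2, while Rsad2 has 1. The core was not found in these letters for Ifit2, Isg20, Oasl1, Oasl2, Irf7, Irf9, Cmpk2, Xaf1, Ifi35 and Herc6.
Isg15: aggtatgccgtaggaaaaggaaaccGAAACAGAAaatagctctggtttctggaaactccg
Bst2: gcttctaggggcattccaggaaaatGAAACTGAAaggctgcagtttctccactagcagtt

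The libraries held 149149135 to 180057537 UMIs in 10879 to 13105 barcodes each, and 24227 of 47658 barcodes carried one of 7 annotated classes: Lining, Mmp3+, Il6+, Cd200+ and Pi16+ fibroblasts, chondrocytes and osteoblasts. Between 7 and 12 annotated barcodes were shared by any pair of libraries. Each animal had 413 to 2037 fibroblasts and 4508588 to 36786390 fibroblast UMIs, with a median of 11858 to 20813 UMIs per fibroblast in the 14 arthritic animals and 9203 to 10516 in the healthy animals. The healthy animals stood apart in their hashtags: the annotated hashtag was the one with most counts in 10.2%, 22.9% and 35.4% of their fibroblasts in the IL-17-inhibited, TNF-inhibited and untreated libraries, against 96.2% to 100% in the arthritic animals. Counts of called members in summed fibroblasts against healthy animals are therefore also given from cells whose annotated hashtag was the highest; the class results were not recomputed in this way. The makeup of the fibroblast sums differed as well: Pi16+ cells made up 0.0566% to 3.49% of fibroblasts in unsorted arthritic animals, 5.17% to 11.2% in FAP-sorted animals and 41.9% to 44.2% in healthy animals. Mmp3+ cells made up 31.9% to 55.8% in unsorted arthritic and 2.14% to 5.81% in healthy animals. Il6+ cells made up 23.8% to 38.0% in TNF-inhibited and 42.5% to 50.6% in untreated arthritic animals, without overlap. A lower level in such a sum can come from fewer cells of a type or from less RNA per cell, and the sum alone cannot tell these apart. Levels within single classes are given further below.

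Averaged over the 32 genes, the antiviral set stood highest in fibroblasts of TNF-inhibited animals. The level is the mean of log2(CPM + 1), with CPM the UMIs scaled by the TMM-adjusted fibroblast total of each animal. It was 4.51, 4.67 and 4.86 in TNF-inhibited animals, 3.77, 4.53 and 4.35 in IL-17-inhibited animals, 3.18, 3.59, 3.48, 3.13 and 3.50 in FAP-sorted animals, 3.67, 3.76 and 4.06 in untreated arthritic animals, and 3.19, 3.40 and 3.37 in healthy animals. Group means were 4.68 ± 0.17 in TNF-inhibited (SD, n = 3), 4.22 ± 0.40 in IL-17-inhibited (n = 3), 3.38 ± 0.21 in FAP-sorted (n = 5), 3.83 ± 0.21 in untreated arthritic (n = 3) and 3.32 ± 0.12 in healthy animals (n = 3). TNF-inhibited animals lay above all untreated arthritic animals, and untreated arthritic animals lay above all healthy animals. IL-17-inhibited animals overlapped untreated arthritic and TNF-inhibited animals, and FAP-sorted animals overlapped healthy animals. Ifitm3 supplied most of the summed CPM, and without it the sum was 1216 ± 206 CPM in TNF-inhibited, 898 ± 260 CPM in IL-17-inhibited, 468 ± 73.8 CPM in FAP-sorted, 638 ± 127 CPM in untreated arthritic animals and 391 ± 32.5 CPM in healthy animals.

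**Figure D1:**
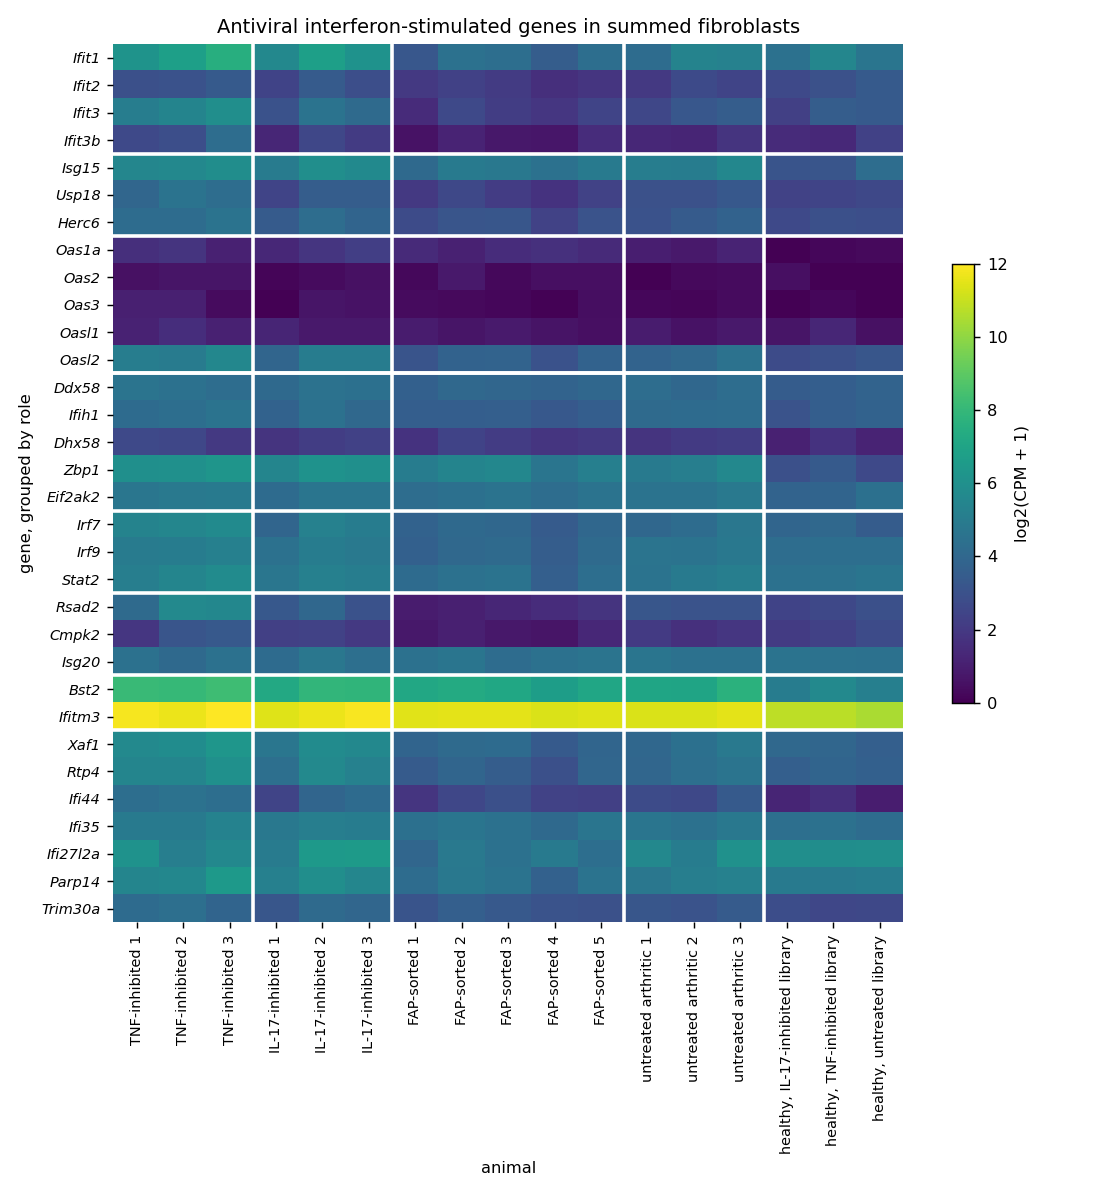
Level of each of the 32 genes (rows) in the summed fibroblasts of each of the 17 animals (columns), as colour on a log2(CPM + 1) scale. The columns of the TNF-inhibited animals are brightest for most genes, and the FAP-sorted and healthy columns are the dimmest for most.

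The first question was which antiviral genes differ between arthritic and healthy joints without treatment. In untreated arthritic fibroblasts 11 of 32 members were higher than in healthy fibroblasts and none was lower, at an adjusted p under 0.05 (edgeR quasi-likelihood test over 14348 genes). In the same test 14.4% of all genes were called higher and 14.3% lower. The median log2 fold change was 0.65 over the members, with 27 of 32 positive, and 0.01 over all genes tested. The called members were the RNA sensors Ddx58, Ifih1 and Dhx58, the nucleic acid sensor Zbp1, the kinase Eif2ak2, the membrane proteins Bst2 and Ifitm3, Isg15, Oas1a, Oasl2 and Ifi44. No member of the IFIT family was among them. In 17 members all untreated arthritic animals lay above all healthy animals, as in 23.3% of all genes tested; in 1 they lay below (21.8% of all genes), and 14 overlapped. The median mitochondrial share of fibroblasts, 2.29% to 2.36% in untreated arthritic and 1.71% to 2.14% in healthy animals, also separated the groups, and its part in the result was not tested. Without TMM scaling, which moved the median of all genes to -0.20, 7 members were higher and 1 lower, and the calls over all genes were 1245 higher and 4030 lower, against 2070 higher and 2046 lower with it. From cells whose annotated hashtag was highest, 6 members were higher, and a term for library left 3. Apart from the fits without TMM, the share of all genes called is not given for alternatives here or below. Without the healthy animal of the IL-17-inhibited library the count was 5, and Bst2, Ifitm3, Isg15 and Zbp1 stayed called whichever animal was left out.

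The second question was what TNF inhibition does to the set. In TNF-inhibited fibroblasts 14 of 32 members were higher than in untreated arthritic fibroblasts and none was lower, while 2.53% of all genes were called higher and 3.02% lower. The median log2 fold change was 0.93 over the members, with 31 of 32 positive, and 0.00 over all genes. The called members were Ifit1, Ifit3, Ifit3b, Rsad2, Usp18, Herc6, Irf7, Xaf1, Rtp4, Trim30a, Oasl2, Ifi44, Zbp1 and Bst2. All TNF-inhibited animals lay above all untreated arthritic animals in 22 members, against 15.5% of all genes, and 10 overlapped. The median mitochondrial share was 1.85% to 2.15% in TNF-inhibited and 2.29% to 2.36% in untreated arthritic fibroblasts, without overlap, and its part in the result was not tested. The count leaned on single animals: it was 2 without untreated arthritic animal 1 and 2 without untreated arthritic animal 2, 5 without TNF-inhibited animal 2, 9 without TNF-inhibited animal 3 and 9 without untreated arthritic animal 3. Ifit3 and Rsad2 stayed called in each of these fits. When class sums were weighted to the same mix of Lining, Il6+ and Cd200+ cells, leaving out Mmp3+ cells, which only 1 healthy animal had in number, no member was called and 29 of 30 were positive. With the same mix of Lining, Mmp3+, Il6+ and Cd200+ cells in arthritic animals alone, a setting chosen after seeing the data, 8 members were called. A library term, which rests on the 1 healthy animal of each library, left 0 called with 28 of 32 positive. Whether calls over all genes fell as well in these fits is not given, so a loss particular to the members is not shown. Without TMM scaling the calls over all genes were 241 higher and 795 lower, against 363 higher and 434 lower with it, and the members stood at 14 higher.

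Untreated arthritic animals served as the comparison for TNF-inhibited animals and were themselves compared with healthy ones, so these 2 comparisons share animals and are set side by side only. Bst2, Ifi44, Oasl2 and Zbp1 were called in both. Ddx58, Dhx58, Eif2ak2, Ifih1, Ifitm3, Isg15 and Oas1a were called only against healthy, and Herc6, Ifit1, Ifit3, Ifit3b, Irf7, Rsad2, Rtp4, Trim30a, Usp18 and Xaf1 only under TNF inhibition; whether the 2 effects differed was not tested. The other 11 members were called in neither.

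Under IL-17 inhibition 2 of 32 members were higher than in untreated arthritic fibroblasts, Oas1a and Xaf1, and none was lower, while 3.80% of all genes were called higher. The median log2 fold change was 0.48, with 29 of 32 positive, and 0.01 over all genes, and in 30 members the animals overlapped, while 18.1% of all genes had every IL-17-inhibited animal above every untreated arthritic one. This count moved with most single animals: IL-17-inhibited animal 1 had the lowest mean level of its group, and without it 9 members were called. Without IL-17-inhibited animal 2 or 3, or without untreated arthritic animal 1 or 2, no member was called. A direct test of TNF-inhibited against IL-17-inhibited fibroblasts called 3 of 32 members higher, Rsad2, Usp18 and Ifit3, and none lower, while 3.05% of all genes were called higher. It called 5 without TNF-inhibited animal 1 and 1 without TNF-inhibited animal 2; Rsad2 stayed called whichever animal was left out.

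Against healthy fibroblasts 26 of 32 members were higher in TNF-inhibited animals, while 19.6% of all genes were called higher. The 6 members not called were Ifit2, Isg20, Oas2, Oasl1, Cmpk2 and Ifi27l2a. In IL-17-inhibited animals 20 of 32 members were higher than in healthy animals, while 17.9% of all genes were called higher. No member was lower in either comparison, and the median log2 fold changes were 1.73 in TNF-inhibited and 0.96 in IL-17-inhibited animals. From cells whose annotated hashtag was highest the counts were 24 for TNF-inhibited and 17 for IL-17-inhibited animals, and a library term left 15 of 32 and 8 of 32. In every alternative run, the same class mix among them, 14 of the 26 calls and 6 of the 20 calls held.

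FAP-sorted fibroblasts, which are also arthritic and untreated, went the other way. Of 30 members tested (Oas2 and Oas3 were under the count filter in this fit), 17 were lower than in unsorted untreated arthritic fibroblasts and 1, Oas1a, was higher, while 21.5% of all 13418 genes tested were called lower and 21.3% higher. The median log2 fold change was -0.63, with 2 of 30 positive, and -0.01 over all genes. All 5 FAP-sorted animals lay below all 3 untreated arthritic animals in 9 members, against 19.4% of all genes. Without untreated arthritic animal 3 the count of lower members was 6, and without untreated arthritic animal 2 it was 11. Cmpk2, Ifi27l2a, Ifih1, Irf9, Rsad2 and Usp18 stayed called whichever animal was left out, and with the same mix of 4 fibroblast classes in every animal 9 members were lower. Sort, library and Cell Ranger version differ together in this comparison and cannot be told apart. Summed neutrophil markers were 99.3 to 132 CPM in FAP-sorted and 43.5 to 54.2 CPM in untreated arthritic fibroblasts, and summed muscle markers 1.15 to 1.99 CPM in FAP-sorted and 129 to 180 CPM in untreated arthritic ones. The median mitochondrial share was 2.98% to 3.35% in FAP-sorted and 2.29% to 2.36% in untreated arthritic fibroblasts. The part of these in the result was not tested.

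**Figure D2:**
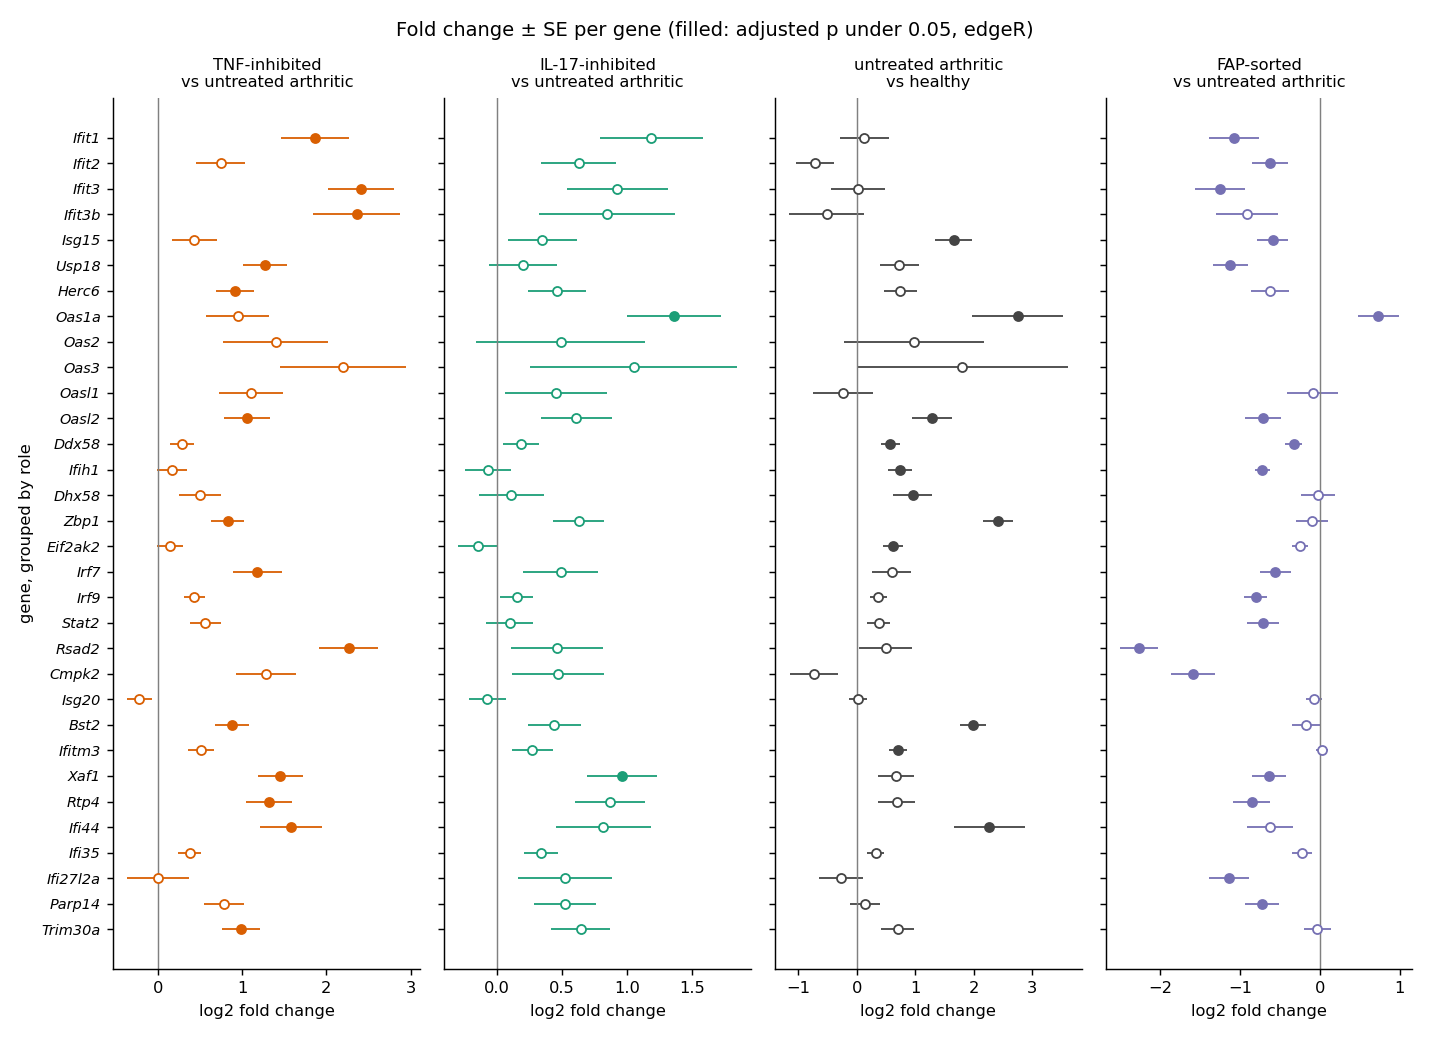
Log2 fold change of each member in summed fibroblasts, with its standard error as a bar, for TNF-inhibited over untreated arthritic, IL-17-inhibited over untreated arthritic, untreated arthritic over healthy and FAP-sorted over untreated arthritic animals. Filled points passed an adjusted p under 0.05; 14, 2, 11 and 18 members are filled in these panels.

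The IFIT proteins bind viral RNA and block its translation, and as a family they showed the largest differences under TNF inhibition. Of 4 members, 3 were higher than in untreated arthritic fibroblasts (median log2 fold change 2.11), against 2.53% of all genes. None of 4 was called between untreated arthritic and healthy fibroblasts (median -0.25), where 14.4% of all genes were higher and 14.3% lower. In FAP-sorted fibroblasts 3 of 4 were lower, against 21.5% of all genes. Ifit3 (chromosome 19, 34583531 to 34588731) had 33.2, 42.3 and 60.6 CPM in TNF-inhibited animals, 7.05, 23.1 and 16.8 CPM in IL-17-inhibited animals, 1.79, 5.36, 3.58, 2.71 and 4.44 CPM in FAP-sorted animals, 4.85, 8.45 and 10.8 CPM in untreated arthritic animals, and 3.90, 10.7 and 9.43 CPM in healthy animals. Every TNF-inhibited animal was above every other animal of the study, while untreated arthritic and healthy animals overlapped. Ifit3 rose in TNF-inhibited over untreated arthritic fibroblasts with a log2 fold change of 2.41 ± 0.39 (SE, adjusted p = 0.00836), and over IL-17-inhibited fibroblasts with 1.49 ± 0.37 (adjusted p = 0.0282). The fitted difference between untreated arthritic and healthy fibroblasts was 0.02 ± 0.47 (adjusted p = 0.985), and in FAP-sorted fibroblasts Ifit3 fell by 1.25 on the log2 scale (SE 0.31, adjusted p = 0.00858).

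Ifit1 (chromosome 19, 34640871 to 34650009) had 70.5, 108 and 185 CPM in TNF-inhibited animals, 47.1, 107 and 67.4 CPM in IL-17-inhibited animals, 8.45, 21.4, 19.0, 10.8 and 19.5 CPM in FAP-sorted animals, 17.8, 40.8 and 37.5 CPM in untreated arthritic animals, and 21.4, 44.0 and 24.4 CPM in healthy animals. Both inhibited groups lay above all untreated arthritic animals, and the FAP-sorted animals overlapped the lowest untreated arthritic one. The log2 fold change over untreated arthritic was 1.87 ± 0.40 in TNF-inhibited fibroblasts (adjusted p = 0.0245), 1.19 ± 0.39 in IL-17-inhibited fibroblasts (adjusted p = 0.0793) and -1.08 ± 0.31 in FAP-sorted fibroblasts (adjusted p = 0.0179). Ifit3b had 5.33, 6.30 and 18.3 CPM in TNF-inhibited animals and 1.38 to 2.47 CPM in untreated arthritic animals (2.36 ± 0.52, adjusted p = 0.0261). Its reference transcript is 98.0% identical to that of Ifit3 over the aligned bases, so how reads were split between the pair is uncertain. Ifit2 differed from its relatives: it had 6.58, 7.17 and 9.57 CPM in TNF-inhibited animals, 4.36, 9.82 and 6.43 CPM in IL-17-inhibited animals, 2.94, 4.04, 3.20, 2.11 and 2.59 CPM in FAP-sorted animals, 2.97, 5.48 and 4.58 CPM in untreated arthritic animals and 5.26, 6.88 and 9.54 CPM in healthy animals. TNF-inhibited and healthy animals covered the same range (0.03 on the log2 scale), and the TNF-inhibited over untreated difference was 0.75 ± 0.29 (adjusted p = 0.136).

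Isg15 is a ubiquitin-like protein attached to other proteins during the antiviral response, Usp18 removes it and restrains IFNAR signalling, and Herc6 is the ligase that attaches it in the mouse. Isg15 (chromosome 4, 156199424 to 156200818) had 45.2, 48.3 and 58.9 CPM in TNF-inhibited animals, 30.6, 60.2 and 50.1 CPM in IL-17-inhibited animals, 16.1, 30.2, 27.3, 21.3 and 30.0 CPM in FAP-sorted animals, 32.5, 32.3 and 45.5 CPM in untreated arthritic animals, and 7.79, 7.84 and 18.3 CPM in healthy animals. All untreated arthritic animals were above all healthy ones, and Isg15 rose by a log2 fold change of 1.65 ± 0.31 (adjusted p = 0.00155); TNF-inhibited and untreated arthritic animals overlapped (0.44 ± 0.27, adjusted p = 0.349). In FAP-sorted fibroblasts Isg15 fell by 0.59 on the log2 scale (SE 0.20, adjusted p = 0.0321).

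Usp18 (chromosome 6, 121245906 to 121270917) had the opposite order of calls, with 14.5, 23.0 and 18.4 CPM in TNF-inhibited animals, 4.58, 10.6 and 10.7 CPM in IL-17-inhibited animals, 3.01, 5.12, 3.44, 2.33 and 4.23 CPM in FAP-sorted animals, 6.80, 6.86 and 8.95 CPM in untreated arthritic animals, and 4.09, 4.48 and 5.12 CPM in healthy animals. TNF-inhibited animals lay above all others, and FAP-sorted animals lay below all untreated arthritic animals. Usp18 rose in TNF-inhibited over untreated arthritic fibroblasts (1.28 ± 0.26, adjusted p = 0.022) and over IL-17-inhibited fibroblasts (1.08 ± 0.25, adjusted p = 0.0223). Its untreated arthritic over healthy difference was 0.72 ± 0.33 (adjusted p = 0.125). Herc6 had 17.9, 17.8 and 23.1 CPM in TNF-inhibited animals, 9.74, 18.4 and 13.6 CPM in IL-17-inhibited animals, 5.69, 8.07, 8.30, 4.14 and 7.44 CPM in FAP-sorted animals, 7.03, 10.0 and 12.8 CPM in untreated arthritic animals, and 5.26, 6.56 and 6.28 CPM in healthy animals. No TNF-inhibited animal overlapped an untreated arthritic one, and Herc6 rose by 0.92 ± 0.22 on the log2 scale (adjusted p = 0.0358).

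The OAS enzymes make 2-5A, the messenger that activates RNase L, and Oasl1 and Oasl2 are their relatives. Of the 5, 2 were higher in untreated arthritic than in healthy fibroblasts, against 14.4% of all genes. Under TNF inhibition 1 of 5 was higher (2.53% of all genes), and under IL-17 inhibition 1 of 5 (3.80% of all genes). Oasl2 had 33.2, 31.3 and 45.4 CPM in TNF-inhibited animals, 14.1, 32 and 32.4 CPM in IL-17-inhibited animals, 7.68, 12.7, 13.3, 7.22 and 12.8 CPM in FAP-sorted animals, 13.1, 15.8 and 22.0 CPM in untreated arthritic animals, and 5.65, 6.72 and 8.38 CPM in healthy animals. TNF-inhibited, untreated arthritic and healthy animals did not overlap, and Oasl2 was called at each step: 1.06 ± 0.27 in TNF-inhibited over untreated arthritic (adjusted p = 0.0421) and 1.29 ± 0.34 in untreated arthritic over healthy fibroblasts (adjusted p = 0.0125).

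Oas1a was called higher in both IL-17-inhibited and FAP-sorted over untreated arthritic fibroblasts, and neither call held in every fit. It had 2.09, 2.55 and 1.14 CPM in TNF-inhibited animals, 1.54, 2.63 and 3.70 CPM in IL-17-inhibited animals, 1.66, 1.16, 1.86, 2.18 and 1.71 CPM in FAP-sorted animals, 1.02, 0.779 and 1.30 CPM in untreated arthritic animals, and 0, 0.160 and 0.233 CPM in healthy animals. The healthy animals held 3 Oas1a UMIs in all against 82 in untreated arthritic animals, a ratio of 6.88 after scaling with an exact 95% counting interval of 2.27 to 34.1. The log2 fold change over untreated arthritic was 1.36 ± 0.36 in IL-17-inhibited (adjusted p = 0.0351), 0.73 ± 0.25 in FAP-sorted (adjusted p = 0.0378) and 0.95 in TNF-inhibited fibroblasts (adjusted p = 0.141). The FAP-sorted call was lost with hashtag number as replicate block, without FAP-sorted animal 1, 3, 4 or 5 and without untreated arthritic animal 1 or 2. The IL-17-inhibited call was lost without IL-17-inhibited animal 2 or 3 or any 1 untreated arthritic animal. Its reference transcript is 97.5% identical to that of Oas1g, so its counts are uncertain. Oas3 had 1.08, 1.11 and 0.263 CPM in TNF-inhibited animals, 0, 0.591 and 0.513 CPM in IL-17-inhibited animals, 0.0376 to 0.341 CPM in FAP-sorted animals, 0.156, 0.120 and 0.271 CPM in untreated arthritic animals, and 0, 0.160 and 0 CPM in healthy animals. The single healthy UMI gives a TNF-inhibited over healthy ratio of 19.3 with an interval of 3.36 to 774, which covers counting error only (adjusted p = 0.0375). Oas2 stayed at or below 0.776 CPM and Oasl1 between 0.410 and 1.98 CPM in all animals, and neither was called between any groups.

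The sensors and the kinase were all called higher in untreated arthritic over healthy fibroblasts, as were both membrane proteins described below. RIG-I (Ddx58), MDA5 (Ifih1) and LGP2 (Dhx58) bind viral RNA in the cytosol, Zbp1 binds Z-form nucleic acid, and PKR (Eif2ak2) halts translation when it binds double-stranded RNA. All 5 were higher in untreated arthritic than in healthy fibroblasts (median log2 fold change 0.73), against 14.4% of all genes. Of the 5, 1, Zbp1, was higher in TNF-inhibited than in untreated arthritic fibroblasts, against 2.53% of all genes. Zbp1 (chromosome 2, 173206612 to 173218923) had 61.3, 65.1 and 76.0 CPM in TNF-inhibited animals, 43.2, 68.7 and 61.3 CPM in IL-17-inhibited animals, 31.4, 41.3, 45.5, 24.6 and 35.6 CPM in FAP-sorted animals, 30.0, 33.5 and 47.9 CPM in untreated arthritic animals, and 6.62, 9.44 and 5.35 CPM in healthy animals. All 14 arthritic animals lay above all healthy animals. Zbp1 rose by 2.42 ± 0.25 in untreated arthritic over healthy fibroblasts (adjusted p = 1.49e-05) and by a further 0.83 ± 0.20 in TNF-inhibited over untreated arthritic fibroblasts (adjusted p = 0.0341), both as log2 fold changes. FAP-sorted and untreated arthritic animals overlapped (-0.09 ± 0.20, adjusted p = 0.729).

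Ifih1 had 17.3, 19.5 and 23.1 CPM in TNF-inhibited animals, 12.8, 21.1 and 15.6 CPM in IL-17-inhibited animals, 11.1, 11, 11.6, 8.84 and 11.2 CPM in FAP-sorted animals, 16.6, 17.6 and 17.7 CPM in untreated arthritic animals, and 7.40, 10.9 and 12.6 CPM in healthy animals. Ifih1 rose in untreated arthritic over healthy fibroblasts (0.73 ± 0.20, adjusted p = 0.0162), and in FAP-sorted fibroblasts it fell by 0.72 on the log2 scale with no overlap (SE 0.09, adjusted p = 0.000353). Its fitted TNF-inhibited over untreated arthritic difference was 0.17 (adjusted p = 0.594). Ddx58 ranged from 18.6 to 23.7 CPM in TNF-inhibited, 14.9 to 18.5 CPM in untreated arthritic and 10.1 to 13.3 CPM in healthy animals (untreated arthritic over healthy 0.57 ± 0.16, adjusted p = 0.0177). Dhx58 ranged from 2.99 to 5.19 CPM in TNF-inhibited, 2.50 to 3.59 CPM in untreated arthritic and 1.17 to 2.40 CPM in healthy animals (0.95 ± 0.34, adjusted p = 0.049). Eif2ak2 ranged from 24.9 to 29.4 CPM in TNF-inhibited, 22.6 to 27.4 CPM in untreated arthritic and 13.2 to 20.2 CPM in healthy animals (0.62 ± 0.17, adjusted p = 0.0169).

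STAT2 and IRF9 carry the interferon signal to the nucleus, and IRF7 amplifies interferon production. None of the 3 was called between untreated arthritic and healthy fibroblasts, where 14.4% of all genes were higher and 14.3% lower. Under TNF inhibition 1 of 3 was higher (2.53% of all genes), and all 3 were lower in FAP-sorted fibroblasts (21.5% of all genes). Irf7 (chromosome 7, 141262706 to 141266481) had 40.2, 43.9 and 53.1 CPM in TNF-inhibited animals, 13.9, 37.1 and 31.8 CPM in IL-17-inhibited animals, 12.5, 16.4, 15.0, 9.89 and 15.1 CPM in FAP-sorted animals, 15.1, 17.7 and 25.9 CPM in untreated arthritic animals, and 14.0, 15.8 and 10.2 CPM in healthy animals. TNF-inhibited animals lay above all others, and Irf7 rose by 1.18 ± 0.29 over untreated arthritic fibroblasts on the log2 scale (adjusted p = 0.0371). Stat2 had 34.4, 43.4 and 54.6 CPM in TNF-inhibited animals, 24.8, 36.3 and 32.7 CPM in IL-17-inhibited animals, 17.3, 21.3, 22.4, 11.3 and 19.2 CPM in FAP-sorted animals, 22.5, 29.9 and 34.6 CPM in untreated arthritic animals, and 21.4, 21.8 and 24.6 CPM in healthy animals. Its TNF-inhibited and untreated arthritic animals overlapped by a small margin (0.56 ± 0.18, adjusted p = 0.0818), and in FAP-sorted fibroblasts Stat2 fell by 0.71 on the log2 scale (SE 0.20, adjusted p = 0.0158). Irf9 fell by 0.80 in FAP-sorted fibroblasts (SE 0.15, adjusted p = 0.00193), and its TNF-inhibited over untreated arthritic value was 0.44 ± 0.13 (adjusted p = 0.0628).

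Under TNF inhibition the enzymes of nucleotides and RNA ran from -0.22 to 2.26 in log2 fold change over untreated arthritic fibroblasts. Rsad2, or viperin, converts CTP into a chain terminator of viral RNA synthesis, Cmpk2 is a nucleotide kinase encoded beside it, and Isg20 is an exonuclease that degrades RNA. Rsad2 (chromosome 12, 26442746 to 26456452) had 17, 49.0 and 45.6 CPM in TNF-inhibited animals, 9.03, 15.3 and 7.05 CPM in IL-17-inhibited animals, 0.896, 1.09, 1.48, 1.92 and 2.53 CPM in FAP-sorted animals, 8.28, 7.40 and 7.26 CPM in untreated arthritic animals, and 4.28, 5.12 and 6.52 CPM in healthy animals. TNF-inhibited animals lay above all other animals and FAP-sorted animals below all others. Rsad2 rose in TNF-inhibited over untreated arthritic fibroblasts (2.26 ± 0.35, adjusted p = 0.00768) and over IL-17-inhibited fibroblasts (1.80 ± 0.34, adjusted p = 0.00764), and in FAP-sorted fibroblasts it fell by 2.27 on the log2 scale (SE 0.24, adjusted p = 0.000183). The untreated arthritic over healthy difference was 0.49 ± 0.45 (adjusted p = 0.453).

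Cmpk2 had 2.77, 7.95 and 9.31 CPM in TNF-inhibited animals, 3.79, 4.23 and 2.94 CPM in IL-17-inhibited animals, 0.704, 1.09, 0.716, 0.602 and 1.5 CPM in FAP-sorted animals, 3.05, 2.22 and 2.74 CPM in untreated arthritic animals, and 3.31, 4.00 and 5.59 CPM in healthy animals. It was the 1 member with all untreated arthritic animals below all healthy animals, a difference that was not called (-0.74 ± 0.41, adjusted p = 0.199). Cmpk2 missed the threshold under TNF inhibition, with TNF-inhibited animal 1 inside the untreated arthritic range (1.29 ± 0.35, adjusted p = 0.0514), and it fell by 1.59 in FAP-sorted fibroblasts (SE 0.28, adjusted p = 0.00163). Isg20 had 21.0, 16 and 21.4 CPM in TNF-inhibited animals, 17.5, 25.8 and 19.96 CPM in IL-17-inhibited animals, 21.1, 24.0, 17.8, 21.5 and 23.3 CPM in FAP-sorted animals, 24.3, 21.0 and 21.6 CPM in untreated arthritic animals, and 22.8, 21.9 and 21.2 CPM in healthy animals. Isg20 overlapped between all groups, and its TNF-inhibited over untreated arthritic value was -0.22 (adjusted p = 0.388).

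Bst2, or tetherin, holds budding virus at the cell surface, and Ifitm3 blocks viral fusion in endosomes. Both were higher in untreated arthritic than in healthy fibroblasts, against 14.4% of all genes. Bst2 (chromosome 8, 71534255 to 71537456) had 283, 264 and 309 CPM in TNF-inhibited animals, 152, 235 and 233 CPM in IL-17-inhibited animals, 145, 162, 142, 102 and 138 CPM in FAP-sorted animals, 131, 126 and 200 CPM in untreated arthritic animals, and 32.3, 48.6 and 34.8 CPM in healthy animals. Every arthritic animal lay above every healthy one. Bst2 rose by 1.99 ± 0.22 in untreated arthritic over healthy (adjusted p = 2.29e-05) and by 0.88 ± 0.20 in TNF-inhibited over untreated arthritic fibroblasts (adjusted p = 0.0305). Ifitm3 (chromosome 7, 141009586 to 141010770) had 3603, 3231 and 4781 CPM in TNF-inhibited animals, 2721, 3238 and 3757 CPM in IL-17-inhibited animals, 2841, 2880, 2882, 2520 and 2754 CPM in FAP-sorted animals, 2571, 2551 and 2901 CPM in untreated arthritic animals, and 1792, 1747 and 1420 CPM in healthy animals. It rose by 0.70 ± 0.16 in untreated arthritic over healthy fibroblasts (adjusted p = 0.00433), with no overlap, and its TNF-inhibited over untreated arthritic value was 0.51 ± 0.16 (adjusted p = 0.0677).

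Of the other 7 members, 1 was higher in untreated arthritic than in healthy fibroblasts, a share near the 14.4% of all genes. Under TNF inhibition 4 of the 7 were higher, against 2.53% of all genes. Ifi44, a cytoplasmic protein induced by interferon, had 19.4, 22.4 and 19.5 CPM in TNF-inhibited animals, 4.45, 13.9 and 17 CPM in IL-17-inhibited animals, 2.56, 4.97, 6.63, 4.10 and 3.82 CPM in FAP-sorted animals, 5.63, 4.97 and 9.44 CPM in untreated arthritic animals, and 1.36, 2.08 and 0.931 CPM in healthy animals. TNF-inhibited, untreated arthritic and healthy animals were 3 separate ranges, and Ifi44 rose by 2.27 ± 0.60 in untreated arthritic over healthy (adjusted p = 0.0122) and by 1.58 ± 0.37 in TNF-inhibited over untreated arthritic fibroblasts (adjusted p = 0.0314). Xaf1, a zinc-finger protein that favours apoptosis, had 49.4, 55.2 and 77.0 CPM in TNF-inhibited animals, 25.2, 53.9 and 47.0 CPM in IL-17-inhibited animals, 13.4, 17, 17.1, 9.66 and 14.2 CPM in FAP-sorted animals, 15.3, 20.5 and 28.3 CPM in untreated arthritic animals, and 15.6, 14.6 and 11.3 CPM in healthy animals. Xaf1 rose in TNF-inhibited (1.45 ± 0.27, adjusted p = 0.0149) and in IL-17-inhibited over untreated arthritic fibroblasts (0.96 ± 0.27, adjusted p = 0.0423), although IL-17-inhibited animal 1 lay inside the untreated arthritic range.

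Ifi27l2a, a small membrane protein induced by interferon, had 68.4, 33.6 and 46.9 CPM in TNF-inhibited animals, 30.6, 88.3 and 91.4 CPM in IL-17-inhibited animals, 14.8, 27.6, 21.2, 29.9 and 19.1 CPM in FAP-sorted animals, 48.0, 31.8 and 66.8 CPM in untreated arthritic animals, and 60.2, 58.7 and 59.9 CPM in healthy animals. The 4 groups other than the FAP-sorted one overlapped, with TNF-inhibited over untreated arthritic at 0.00 (adjusted p = 0.997), and in FAP-sorted fibroblasts Ifi27l2a fell by 1.14 (SE 0.25, adjusted p = 0.00492). Rtp4, which chaperones receptors and restricts some viruses, ranged from 42.3 to 65.1 CPM in TNF-inhibited and 14.8 to 23.2 CPM in untreated arthritic animals (1.32 ± 0.27, adjusted p = 0.0222). Trim30a, a TRIM-family protein, ranged from 13.6 to 19.9 CPM in TNF-inhibited and 7.28 to 9.83 CPM in untreated arthritic animals (0.99 ± 0.23, adjusted p = 0.0305). Parp14, a mono-ADP-ribosyltransferase, ranged from 43.5 to 85.5 CPM in TNF-inhibited and 25.8 to 38.3 CPM in untreated arthritic animals without overlap, yet missed the threshold (0.79 ± 0.24, adjusted p = 0.0677). Ifi35 ranged from 28.8 to 39.2 CPM in TNF-inhibited and 21.4 to 27.1 CPM in untreated arthritic animals (0.38, adjusted p = 0.108).

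**Figure D3:**
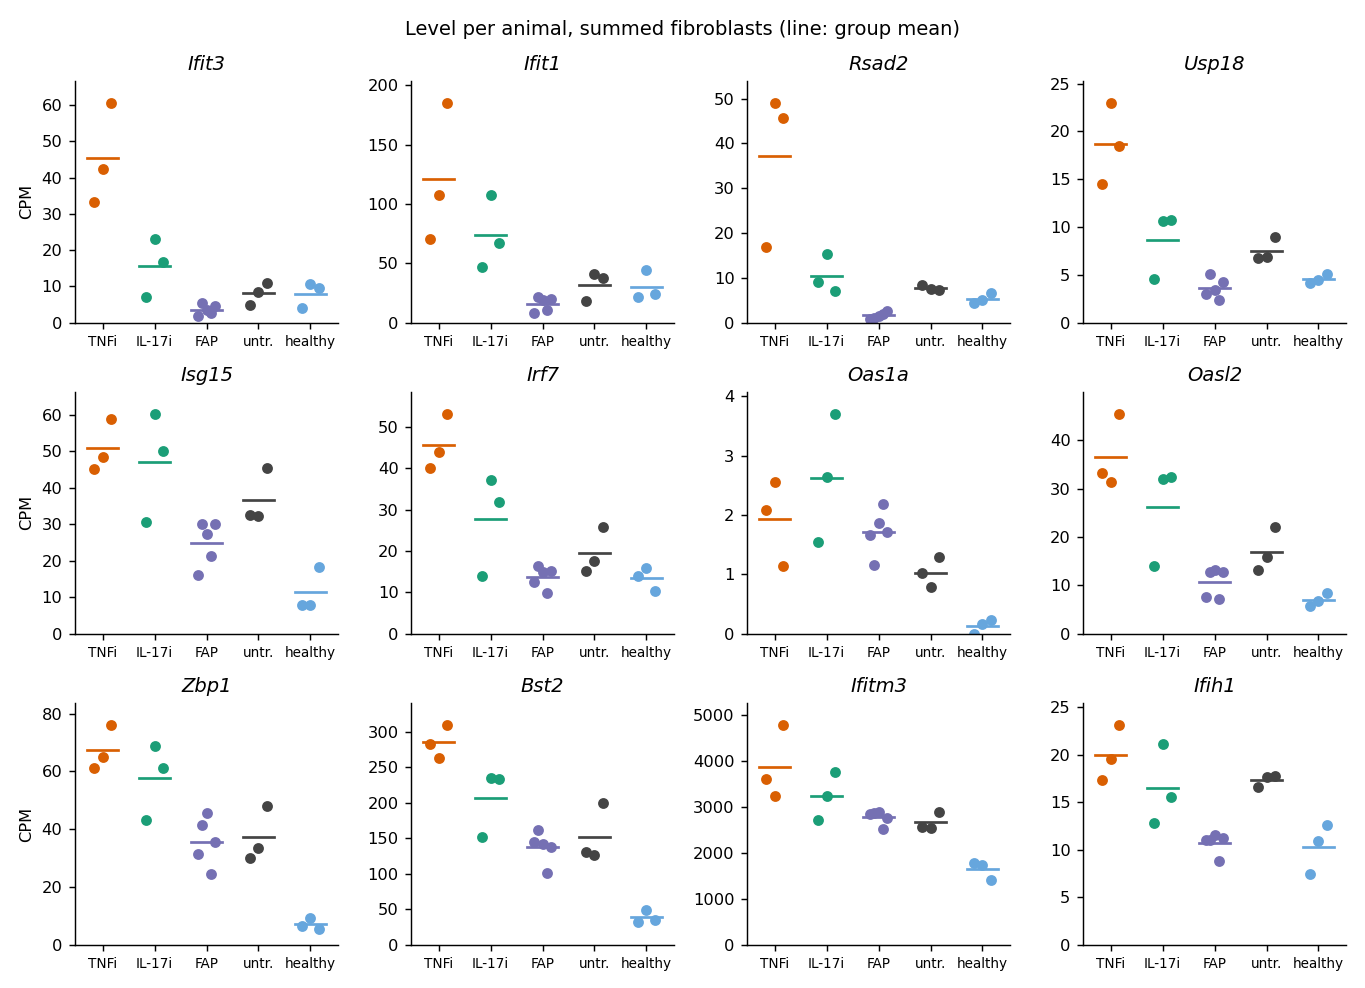
CPM of 12 members in the summed fibroblasts of each animal (points), with a line at each group mean. Ifit3, Rsad2, Usp18 and Irf7 stand apart in the TNF-inhibited animals, while Bst2 and Zbp1 separate all arthritic from all healthy animals.

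Markers of other cells were read in the same sums. The 11 leukocyte markers summed to 23.0 to 36.4 CPM in TNF-inhibited, 31.8 to 91.1 CPM in IL-17-inhibited, 37.7 to 75.6 CPM in FAP-sorted, 26.7 to 28.7 CPM in untreated arthritic and 6.88 to 8.76 CPM in healthy fibroblasts. Of 8 leukocyte markers tested, 1 was higher in IL-17-inhibited than in untreated arthritic fibroblasts, and the median log2 fold change was -0.51. The higher IL-17-inhibited sum thus does not describe the typical leukocyte marker. Cd3e was at 0 in TNF-inhibited, IL-17-inhibited and untreated arthritic animals and Ptprc at 0 in healthy animals. The 4 markers of plasmacytoid dendritic cells, known as strong makers of type I interferon, summed to 497 to 541 CPM in TNF-inhibited, 391 to 451 CPM in IL-17-inhibited, 264 to 361 CPM in FAP-sorted, 365 to 454 CPM in untreated arthritic and 329 to 383 CPM in healthy fibroblasts. Bst2, itself a member, and Tcf4 made up nearly all of these sums; Siglech was at 0 in every group and Ccr9 at or below 0.320 CPM. Of the pair tested, Bst2 was higher under TNF inhibition and Tcf4 was not called (-0.09, adjusted p = 0.593). Leukocyte markers were thus higher in arthritic than in healthy animals, as the members were, and their part in that difference was not tested; their ranges in TNF-inhibited and untreated arthritic animals overlapped. Keratinocyte markers summed to 48.7 to 65.3 CPM in TNF-inhibited, 68.3 to 86.3 CPM in IL-17-inhibited, 29.6 to 32.9 CPM in untreated arthritic and 121 to 324 CPM in healthy fibroblasts, without overlap between TNF-inhibited and untreated arthritic animals. Other marker sums also separated TNF-inhibited from untreated arthritic fibroblasts. Lining markers summed to 12045 to 15853 CPM in TNF-inhibited and 6833 to 10155 CPM in untreated arthritic fibroblasts. Gene by gene, none of the 4 lining markers was called either way, and their median log2 fold change was -0.19. The higher lining sum thus does not describe the typical lining marker. Chondrocyte markers summed to 153 to 202 CPM in TNF-inhibited and 131 to 147 CPM in untreated arthritic fibroblasts. Muscle markers summed to 57.1 to 80.7 CPM in TNF-inhibited and 129 to 180 CPM in untreated arthritic fibroblasts, with Ckm and Myh1 called lower. Neutrophil markers summed to 33.9 to 38.5 CPM in TNF-inhibited and 43.5 to 54.2 CPM in untreated arthritic fibroblasts, and mural markers to 19.1 to 21.8 CPM in TNF-inhibited and 27.5 to 33.2 CPM in untreated arthritic ones. Erythroid markers summed to 0.0337 to 0.150 CPM in TNF-inhibited and 1.38 to 1.90 CPM in untreated arthritic fibroblasts. Neutrophil markers were at 15.6 to 16.5 CPM in healthy fibroblasts, below untreated arthritic ones. The part of these cells in the results was not tested.

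Class by class, Mmp3+ fibroblasts had the most called members under TNF inhibition of the 6 classes tested. Median log2 fold changes over the members were 0.95 in Mmp3+, 0.96 in Lining, 1.03 in Cd200+ and 0.45 in Il6+ cells. TNF-inhibited animals had 338 to 986 Mmp3+, 57 to 229 Lining, 125 to 141 Cd200+ and 320 to 497 Il6+ cells. The part of this depth in the counts of calls was not tested. In Mmp3+ cells 16 of 30 members tested were higher in TNF-inhibited than in untreated arthritic animals, while 2.67% of all genes were called higher. In order from low to high, Ifit3 had 21.4, 30.2 and 47.8 CPM in Mmp3+ cells of TNF-inhibited animals, against 4.5, 5.29 and 7.09 CPM in those of untreated arthritic animals. Ifit3 rose there by 2.64 ± 0.32 on the log2 scale with no overlap (adjusted p = 0.0047), and Ifit1 by 2.30 ± 0.40 (adjusted p = 0.016). Rsad2 had 14.0, 36.2 and 54.7 CPM in Mmp3+ cells of TNF-inhibited animals against 3.74, 5.91 and 13.1 CPM in those of untreated arthritic animals (2.43 ± 0.60, adjusted p = 0.046). The count was 2 and 1 without untreated arthritic animals 1 and 2 and 8 without animal 3, and 8, 4 and 7 without TNF-inhibited animals 1, 2 and 3. Under IL-17 inhibition 6 of 30 members were higher in Mmp3+ cells (Oas1a, Ifit1, Rtp4, Xaf1, Ifit3 and Zbp1; 4.89% of all genes) and Isg20 was lower (6.08% of all genes). Without untreated arthritic animal 1 or 2 or IL-17-inhibited animal 2 the higher count was 0, without IL-17-inhibited animal 3 it was 1, and without IL-17-inhibited animal 1 it was 11.

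In Lining fibroblasts, the cells that face the joint space, 5 of 28 members were higher in TNF-inhibited than in untreated arthritic animals (0.871% of all genes): Ifit3, Usp18, Trim30a, Rsad2 and Xaf1. Rsad2 had 34.7, 45.6 and 48.8 CPM in Lining cells of TNF-inhibited animals, 2.31, 4.28 and 13.3 CPM in those of IL-17-inhibited animals and 3.82, 14.9 and 15.6 CPM in those of untreated arthritic animals, with no overlap between the TNF-inhibited and either other group (TNF-inhibited over untreated arthritic 1.92 ± 0.38, adjusted p = 0.0235). The count was 1 without TNF-inhibited animal 1 or 2 or untreated arthritic animal 1 or 2, and 2 without untreated arthritic animal 3. Lining cells had the most calls between untreated arthritic and healthy animals, 13 of 28 members (6.79% of all genes), and 5 of 28 with a library term; without untreated arthritic animal 3 the count was 8 and without the healthy animal of the untreated library it was 6. Zbp1 had 25.8, 31.7 and 54.0 CPM in Lining cells of untreated arthritic animals and 2.02, 5.33 and 6.91 CPM in those of healthy animals (3.36 ± 0.50, adjusted p = 0.000248). Isg15 (2.70 ± 0.56), Bst2 (2.11 ± 0.32) and Ifitm3 (1.43 ± 0.20) were also higher. Healthy Lining cells held 0 to 2 UMIs in all of Oas1a, Trim30a, Rsad2 and Oasl2, also called, so no fold is given for these.

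In Il6+ fibroblasts none of 28 members was called between TNF-inhibited and untreated arthritic animals by edgeR's quasi-likelihood test, and none by DESeq2, while 0.166% of all genes were called higher; 8 members had an unadjusted p under 0.05. The median log2 fold change was 0.45, with 23 of 28 positive. Ifit3 had 16.8, 19.2 and 51.2 CPM in Il6+ cells of TNF-inhibited animals against 5.47, 14.0 and 14.7 CPM in those of untreated arthritic animals, without overlap (1.33 ± 0.53, adjusted p = 0.266). Against healthy, 5 of 28 members were higher in Il6+ cells of untreated arthritic animals (3.68% of all genes): Zbp1, Bst2, Usp18, Eif2ak2 and Ddx58. This count was 2 without untreated arthritic animal 3, without the healthy animal of the IL-17-inhibited library or without that of the TNF-inhibited library, 3 without that of the untreated library, and 0 with a library term. The call in Mmp3+ cells and its absence in Il6+ cells does not show that the classes respond differently, so that difference was tested directly. No member of 30 was called in the edgeR interaction test of TNF-inhibited over untreated arthritic in Mmp3+ against Il6+ cells, although 28 of 30 estimates were positive, toward Mmp3+ cells, and 16 had an unadjusted p under 0.05. DESeq2 was not run for the interaction. Among all 12937 genes 21 were called and 1448 had an unadjusted p under 0.05. Usp18 came nearest, with a difference of 1.27 ± 0.25 between the log2 fold changes (adjusted p = 0.0689), and 3 members were called without TNF-inhibited animal 3.

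In Cd200+ fibroblasts 3 of 26 members were higher in TNF-inhibited than in untreated arthritic animals (Irf7, Ifitm3 and Rtp4; 0.615% of all genes). Irf7 had 34.7, 45.6 and 85.0 CPM in Cd200+ cells of TNF-inhibited animals against 8.10, 20.1 and 25 CPM in those of untreated arthritic animals (1.55 ± 0.33, adjusted p = 0.0336). The count was 6 and 7 without TNF-inhibited animals 1 and 2, 0 without TNF-inhibited animal 3 or untreated arthritic animal 1 or 2, and 1 without untreated arthritic animal 3. Zbp1, Ifih1 and Bst2 were higher in Cd200+ cells of untreated arthritic than of healthy animals (3 of 26, against 2.41% of all genes), and none with a library term. Healthy Cd200+ cells held 4 Zbp1, 3 Ifih1 and 42 Bst2 UMIs in all, so the first 2 calls rest on few counts. Pi16+ fibroblasts could not be compared between TNF-inhibited and untreated arthritic animals, of which 0 and 1 held at least 20 such cells. In Pi16+ cells of IL-17-inhibited over healthy animals 5 of 23 members were higher (Zbp1, Bst2, Ifi27l2a, Rtp4 and Ifitm3; 1.54% of all genes); no alternative was run for this count.

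Chondrocytes and osteoblasts are the annotated classes that are not fibroblasts, and whether they differ from each other was not tested. Under TNF inhibition 19 of 24 members were positive in chondrocytes (median log2 fold change 0.53) and 20 of 20 in osteoblasts (median 0.96). In chondrocytes none of 24 members was called between TNF-inhibited and untreated arthritic animals by edgeR's quasi-likelihood test (7 at an unadjusted p under 0.05; DESeq2 was not run there), nor was any other gene (0% of all genes called higher). Zbp1 (2.11 ± 0.51, adjusted p = 0.0128) and Bst2 (1.73 ± 0.37, adjusted p = 0.00582) were higher and Irf9 (-0.81 ± 0.25, adjusted p = 0.0466) lower in chondrocytes of untreated arthritic than of healthy animals, against 6.94% of all genes higher and 5.92% lower. In osteoblasts 2 of 20 members were higher in TNF-inhibited than in untreated arthritic animals (0.442% of all genes). Ifit3 had 22.4, 23.8 and 48.3 CPM in osteoblasts of TNF-inhibited animals, 2.32 and 2.41 CPM in those of the 2 untreated arthritic animals with enough cells, and 22.8 and 32.6 CPM in those of 2 healthy animals (TNF-inhibited over untreated arthritic 3.82 ± 0.75, adjusted p = 0.0441). Untreated arthritic animals 2 and 3 held 66 and 43 osteoblasts, so their low Ifit3 levels rest on few UMIs and the size of this fold is uncertain. Of 20 members, 4 (Parp14, Irf9, Ifi35 and Stat2) were lower in osteoblasts of untreated arthritic than of healthy animals (2.81% of all genes), with 2 animals in each group. Parp14 had 11.6 and 15.7 CPM in osteoblasts of untreated arthritic animals against 40.8 and 71.2 CPM in those of healthy animals (-2.04 ± 0.48, adjusted p = 0.0233).

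**Figure D4:**
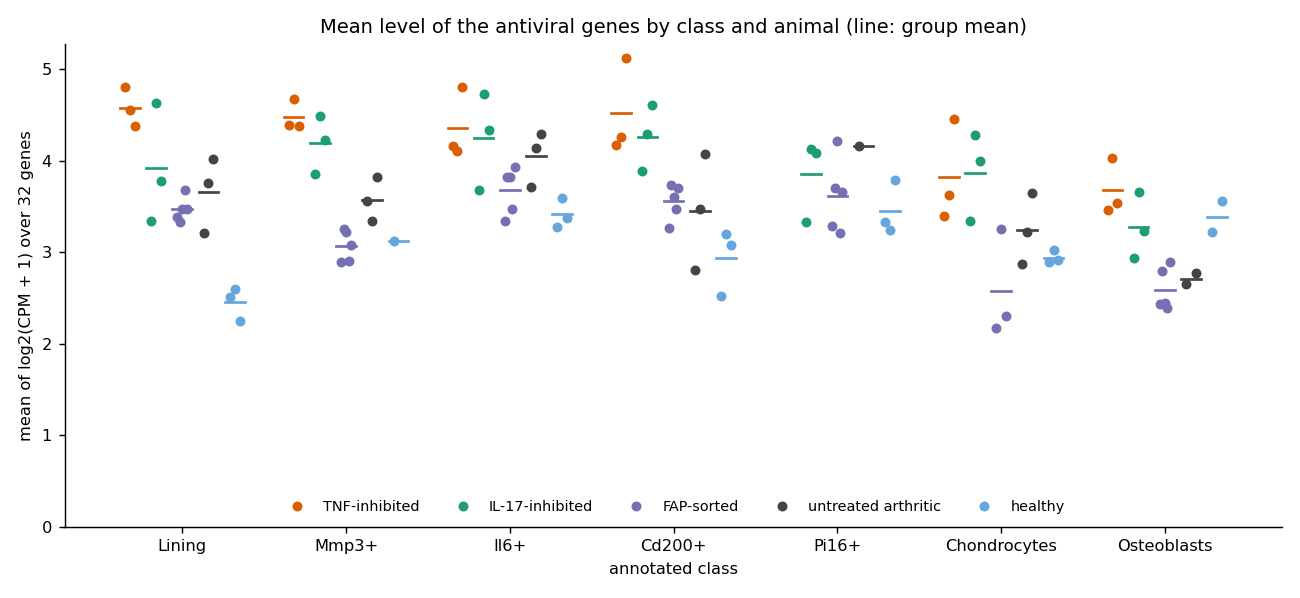
Mean log2(CPM + 1) over the 32 genes in each of the 7 annotated classes, with 1 point per animal that had at least 20 cells of the class, coloured by group. In Lining, Mmp3+ and Cd200+ cells every TNF-inhibited point lies above every untreated arthritic point, and in Il6+ cells they overlap.

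Levels of the set differed between classes as well as between treatments. Over 15 animals with all 4 of the Lining, Mmp3+, Il6+ and Cd200+ classes, the mean over the 32 genes was highest in Il6+ cells in 8 animals, in Lining cells in 3, in Cd200+ cells in 3 and in Mmp3+ cells in 1. The class sums differed in depth: untreated arthritic animal 1 had 48 Lining, 36 Cd200+ and 396 Il6+ cells. FAP-sorted animals had 32 to 48 Lining and 166 to 261 Il6+ cells. The part of depth in this ranking was not tested. The Il6+ class was the highest in none of the 3 TNF-inhibited animals, where Lining, Mmp3+ and Cd200+ cells were each highest once. Group means in Il6+ cells were 4.36 in TNF-inhibited, 4.25 in IL-17-inhibited, 3.68 in FAP-sorted, 4.05 in untreated arthritic and 3.41 in healthy animals. In Lining cells they were 4.58 in TNF-inhibited, 3.92 in IL-17-inhibited, 3.47 in FAP-sorted, 3.66 in untreated arthritic and 2.45 in healthy animals. In Cd200+ cells they were 4.52 in TNF-inhibited, 4.26 in IL-17-inhibited, 3.56 in FAP-sorted, 3.45 in untreated arthritic and 2.94 in healthy animals. In Mmp3+ cells they were 4.49 in TNF-inhibited, 4.19 in IL-17-inhibited, 3.07 in FAP-sorted and 3.58 in untreated arthritic animals. Member by member, mean CPM was taken over the 9 unsorted arthritic animals in these 4 classes, treated and untreated together. It was highest in Cd200+ cells for 15 members, in Lining cells for 10, in Mmp3+ cells for 4 and in Il6+ cells for 3. Single animals weighed on these means: Ifit1 ran from 106 to 581 CPM in Cd200+ cells of TNF-inhibited animals. In untreated arthritic animals alone, Ifit2 was still highest in Cd200+ cells, while Rsad2 and Irf7 were not. Rsad2 averaged 3.13 CPM there in Cd200+ and 11.5 CPM in Lining cells, and Irf7 17.7 CPM in Cd200+ and 26.5 CPM in Il6+ cells. Ifi27l2a averaged 398 CPM in Pi16+ cells of the 4 unsorted arthritic animals with at least 20 of them. Over all 9 it averaged 120 CPM in Il6+ cells, 31.9 CPM in Mmp3+ cells, 9.50 CPM in Cd200+ cells and 4.46 CPM in Lining cells. Oas1a averaged 4.70 CPM in Lining and 0.217 CPM in Cd200+ cells, and Trim30a 21.2 CPM in Lining and 2.33 CPM in Cd200+ cells.

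The inducible genes were also read cell by cell. Each cell was thinned to 4000 UMIs, and a cell was counted when it held UMIs of at least 3 of 11 inducible genes (Ifit1, Ifit2, Ifit3, Ifit3b, Isg15, Rsad2, Usp18, Cmpk2, Oasl1, Irf7 and Rtp4). The share of such cells was 8.37%, 9.71% and 14.1% in TNF-inhibited animals, 1.90%, 8.37% and 5.93% in IL-17-inhibited animals, 1.34%, 2.08%, 2.11%, 1.26% and 2.60% in FAP-sorted animals, 2.13%, 4.15% and 4.23% in untreated arthritic animals, and 1.62%, 2.22% and 2.24% in healthy animals. TNF-inhibited animals lay above all untreated arthritic animals, and the lowest untreated arthritic animal lay inside the healthy range. Cells under 4000 UMIs were left out, 99 in TNF-inhibited, 156 in IL-17-inhibited, 257 in FAP-sorted, 219 in untreated arthritic and 168 in healthy animals. Without thinning the mean shares were 32.1% in TNF-inhibited, 21.8% in IL-17-inhibited, 5.75% in FAP-sorted, 12.2% in untreated arthritic and 4.54% in healthy animals. Untreated arthritic over healthy was a ratio of 1.73 with thinning and 2.69 without it, where median depth also differed.

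Ifit1 was found in 47.7% to 55.4% of cells with an Ifit3 UMI and in 8.48% to 14.5% of other cells in TNF-inhibited animals, against 40.4% to 50% and 3.65% to 6.15% in untreated arthritic animals. Single genes differed in breadth: Bst2 was found in 54.2% of thinned fibroblasts in TNF-inhibited, 47.6% in IL-17-inhibited, 35.2% in FAP-sorted, 38.0% in untreated arthritic and 14.6% in healthy animals (means over animals). Rsad2 was found in 5.21%, 1.56%, 0.597%, 1.40% and 1.11% of cells in the same order of groups. Free RNA also places UMIs in cells, and no annotated class is known to lack these genes, so no background share is given.

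**Figure D5:**
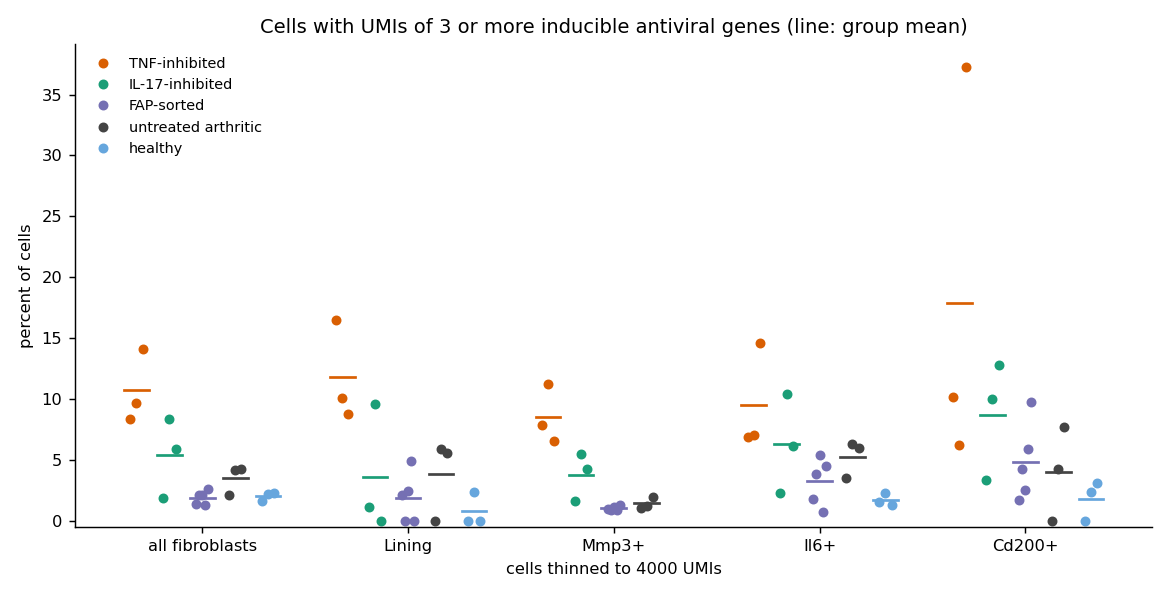
Percent of fibroblasts, thinned to 4000 UMIs, with UMIs of at least 3 of 11 inducible genes, 1 point per animal and a line at each group mean. The 3 TNF-inhibited animals sit between 8.37% and 14.1%, all above the untreated arthritic animals.

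The rest of the interferon pathway was read from lists chosen for their place in it. Their counts stand against all genes, of which 14.4% were called higher and 14.3% lower in untreated arthritic over healthy fibroblasts, and 2.53% higher and 3.02% lower in TNF-inhibited over untreated arthritic fibroblasts. Ligand genes were close to absent from fibroblasts: the 21 interferon genes summed to 0.180 to 0.263 CPM in TNF-inhibited, 0.0441 to 0.0887 CPM in IL-17-inhibited, 0 to 0.205 CPM in FAP-sorted, 0.0300 to 0.0782 CPM in untreated arthritic and 0 to 0.584 CPM in healthy fibroblasts, the widest range. Ifnb1, the interferon beta gene, had 3 UMIs over all barcodes of the TNF-inhibited library, 1 of them in annotated cells, and 0 in the untreated library. Of 15 receptor and signalling genes tested, 8 were higher and 2 lower in untreated arthritic than in healthy fibroblasts, among them Irf8 (1.77), Jak2 (1.20) and the receptor chain Ifnar2 (0.84), with Irf5 (-1.31) and Irf1 (-1.19) lower; values are log2 fold changes. Under TNF inhibition none of the 15 was higher and 3 were lower than in untreated arthritic fibroblasts: Jak2 (-0.50), Jak1 (-0.40) and Ifngr1 (-0.35). Of 10 genes that act upstream of interferon production, 1 (Tmem173, encoding STING, 1.06) was higher and 1 (Myd88, -0.92) lower in untreated arthritic than in healthy fibroblasts, shares near those of all genes, and none was called under TNF inhibition. Of 7 brakes on the pathway, Nlrc5 (2.44) and Ptpn2 (0.56) were higher in untreated arthritic than in healthy fibroblasts, and none was called under TNF inhibition.

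The interferon-gamma GTPases, which disrupt the vacuoles of intracellular microbes, were higher for 8 of 15 genes in untreated arthritic than in healthy fibroblasts (median log2 fold change 1.59), with Iigp1 at 3.07 and Gbp9 at 2.30. Under TNF inhibition 4 of 15 were higher than in untreated arthritic fibroblasts (median 1.21): Tgtp1 (3.06), Tgtp2 (1.94), Irgm1 (1.52) and Igtp (1.5). In FAP-sorted fibroblasts 9 of 14 were lower than in untreated arthritic ones (median -0.99), against 21.5% of all genes. Of 44 further interferon-stimulated genes outside the members, 19 were higher and 1 lower in untreated arthritic than in healthy fibroblasts (median 0.58), with Slfn2 at 3.24 and Ifitm1 at 2.79. Under TNF inhibition 6 of the 44 were higher (median 0.34): Phf11d, Slfn2, Trim34a, Parp12, Adar and Shisa5, at 0.40 to 0.88. In FAP-sorted fibroblasts 23 of 43 were lower and 5 higher than in untreated arthritic fibroblasts, against 21.5% and 21.3% of all genes.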

How the data were processed

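Single-cell libraries were 10x 3' v3.1 with antibody hashtags. The deposited matrices hold UMI counts per gene and barcode that the authors made with Cell Ranger (6.0.0 for 3 libraries and 5.0.0 for the FAP-sorted one per the file headers; 6.0.6 and mm10 per the submitters' processing notes), and their deposited cell table gives class, hashtag and the mitochondrial fraction of each cell, as the authors computed it. No source used here says how doublets were handled, and leaving out the top 5% of cells by UMIs was tried. The members and gene lists were chosen with earlier results of these data known, and 20 members are given animal by animal by a rule on role and size of change. Counts were summed per animal over cells of the 5 fibroblast classes, or per class with at least 20 cells, and tested with edgeR 4.0.16 (quasi-likelihood, TMM, filterByExpr, Benjamini-Hochberg over all genes tested) in R 4.3.3; limma 3.58.1 was loaded by edgeR. The 12 unsorted animals shared 1 fit, and 8 animals entered the FAP-sorted fit. DESeq2 1.42.0, no TMM, no filter, class mix, a library term, hashtag choice and each animal left out were alternatives; the arthritic-only class mix and the class-level alternatives were added after seeing the data. Levels are CPM on TMM-scaled sums of the 17 animals. Cells were thinned with Python 3.11.15, NumPy 2.4.6, SciPy 1.17.1 and pandas 2.3.3. Whether animals with the same hashtag number pair was read from the data, since the labels do not say what the number marks. For TNF-inhibited and untreated arthritic animals the deviations from the group means correlated at 0.13, 0.302 and 0.169 over 7284 genes, all above 0.1. With the hashtag number as replicate block 18 of 31 members were higher, the 14 called without it among them. This pairing was read from the same data, so that count is no support for the other calls. Counting intervals cover counting error only.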

Additional observations from a re-analysis of the deposited data

Results flagged for a closer look

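Ifih1 was at 8.84 CPM in FAP-sorted animal 4, while the other 4 FAP-sorted animals lay between 11.02 and 11.6 CPM. That gap, as a share of the range of the group, passed Dixon's 95% critical value of 0.71 for 5 samples. It was the 1 member of 32 tested in this way to do so, where chance alone flags about 1 in 20 groups. Ifih1 in animal 4 stood further from the untreated arthritic level of 16.6 to 17.7 CPM than in the other FAP-sorted animals, and its call in FAP-sorted fibroblasts held without any 1 animal.

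Between untreated arthritic and healthy animals the mean level over the members differed in opposite directions by class. It was higher in every untreated arthritic than in every healthy animal in Lining cells, by 1.21, and in Il6+ cells, by 0.64, on the log2(CPM + 1) scale. In osteoblasts every untreated arthritic animal was below every healthy animal, with a difference of -0.68 between group means. The difference between the classes was not tested, and only 2 animals per group had at least 20 osteoblasts.

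Interferon ligand UMIs were found outside the annotated cells. Ifnk, the interferon kappa gene of keratinocytes, had 25 UMIs in 4 barcodes of the untreated library and 8 UMIs in 4 barcodes of the TNF-inhibited library, none of them in annotated cells, and Ifnz had 4 UMIs outside annotated cells in the untreated library. No barcodes without annotation are tied to an animal here, so these values belong to libraries and not to groups.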

How the results depend on the processing

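Counts of called members moved with the choices below, and the cause of each shift was not tested. The counts stand without the share of all genes called in the same fit. A change particular to the members therefore cannot be told from one over all genes. Over 48 called values of single members, no sign changed under any alternative run. Of the alternative values, 504 stayed past the threshold and 205 fell short of it. The 48 leave out the comparisons of the inhibited groups with healthy. Calls that held in every alternative were 2 of 11 in untreated arthritic over healthy, 0 of 14 in TNF-inhibited and 0 of 2 in IL-17-inhibited over untreated arthritic. They were 0 of 3 in TNF-inhibited over IL-17-inhibited and 5 of 18 in FAP-sorted over untreated arthritic. With DESeq2, 4 members were higher in IL-17-inhibited than in untreated arthritic fibroblasts, and 7 in Cd200+ cells of TNF-inhibited over untreated arthritic animals; with no filter on low counts, 6 in IL-17-inhibited over untreated arthritic. Without TMM, 7 were higher and 1 lower in untreated arthritic over healthy. From cells whose annotated hashtag was highest, 6 were higher in untreated arthritic over healthy and 1 in IL-17-inhibited over untreated arthritic. With the same class mix the counts were 0 in TNF-inhibited and 0 in IL-17-inhibited over untreated arthritic. They were 1 in TNF-inhibited over IL-17-inhibited and 9 lower, 1 higher, in FAP-sorted. With the mix of 4 classes in arthritic animals, added after seeing the data, they were 8 in TNF-inhibited and 0 in IL-17-inhibited over untreated arthritic. Counts against healthy with the same mix of Lining, Il6+ and Cd200+ cells are not given here. In every alternative run, that mix among them, 14 of 26 calls held in TNF-inhibited over healthy and 6 of 20 in IL-17-inhibited over healthy.

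A library term, which makes the 1 healthy animal of each library its baseline, gave 3 in untreated arthritic over healthy, 0 in TNF-inhibited and 0 in IL-17-inhibited over untreated arthritic, 0 in TNF-inhibited over IL-17-inhibited, 15 in TNF-inhibited over healthy and 8 in IL-17-inhibited over healthy. By class it gave 5 in Lining, 0 in Il6+ and 0 in Cd200+ cells of untreated arthritic over healthy animals, and 0 in Lining and 0 in Cd200+ cells of TNF-inhibited over untreated arthritic animals. With the untreated library's own healthy animal as the only healthy one, 3 were higher in untreated arthritic animals. With at least 50 cells per animal and class, 0 were higher in Lining and 0 in Cd200+ cells of TNF-inhibited over untreated arthritic animals. The share ratio of untreated arthritic over healthy was 2.69 with no thinning.

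Leaving out 1 animal at a time gave 2 to 16 called members in TNF-inhibited over untreated arthritic, 0 to 9 in IL-17-inhibited over untreated arthritic, 1 to 5 in TNF-inhibited over IL-17-inhibited, 25 to 26 in TNF-inhibited over healthy, 14 to 24 in IL-17-inhibited over healthy, 5 to 12 in untreated arthritic over healthy and 6 to 18 lower in FAP-sorted over untreated arthritic fibroblasts. For TNF-inhibited over untreated arthritic the ranges were 1 to 6 in Lining, 1 to 8 in Mmp3+ and 0 to 7 in Cd200+ cells, 0 to 0 in Il6+ cells and 0 to 3 for the interaction. They were 0 to 11 for IL-17-inhibited over untreated arthritic in Mmp3+ cells, and for untreated arthritic over healthy 6 to 13 in Lining, 2 to 4 in Il6+ and 2 to 3 in Cd200+ cells. The difference in mean level over the members stayed at 0.762 to 0.967 for TNF-inhibited over untreated arthritic, 0.230 to 0.613 for IL-17-inhibited over untreated arthritic, 0.394 to 0.591 for untreated arthritic over healthy and -0.533 to -0.335 for FAP-sorted over untreated arthritic animals.

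Correlations by hashtag number were of mixed sign outside the TNF-inhibited and untreated arthritic pair. In FAP-sorted animals those of numbers 2 and 3 were higher than any in that pair. No label gives a pairing, so counts with the block are a description only. With the replicate block, 8 members were higher in IL-17-inhibited over untreated arthritic (correlations -0.0953, -0.0822 and 0.133), 2 in TNF-inhibited over IL-17-inhibited (0.0843, -0.346 and 0.131) and 17 were lower in FAP-sorted fibroblasts (-0.12, 0.417 and 0.349); in 6 of all 12 pairs the correlation was best with the own number. Depth limits values against healthy animals for the OAS genes, since the healthy animals held 3, 2 and 1 UMIs of Oas1a, Oas2 and Oas3.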
